A study of Mus musculus with 6 samples.

Results

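The genes described are the cytosolic ribosomal proteins and their paralogs in mouse bone marrow B220+ cells. They were chosen by symbol alone, as the rows named Rps, Rpl or Rplp followed by a number and an optional suffix, so that pseudogene rows with -ps in the name and the Rps6k kinases were left out. This gave 87 of the 27761 rows of the table: 30 proteins of the small subunit, 46 of the large subunit, of which 3 form the stalk, and 11 paralogs. The study sequenced messenger RNA of 3 WT libraries and 3 PELI2 knockout libraries. B220 is a form of CD45 carried by the B lineage and by plasmacytoid dendritic cells. PELI2 belongs to the Pellino E3 ligases, which act downstream of Toll-like receptors. The knockout libraries carry CKO in their titles, and neither the allele, a Cre driver, the strain, the age nor the number of animals is given in the sources used here. Whether replicates are separate animals is likewise not given, and the p-values then speak only of the spread among these libraries, which may be technical.

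Each cytosolic ribosome holds 1 copy of nearly every ribosomal protein, and most of the proteins are made from a single housekeeping gene. The messenger RNAs typically begin with a C followed by a run of pyrimidines, the terminal oligopyrimidine tract, through which mTOR and Larp1 control their translation. Some ribosomal proteins have a paralog made in place of, or beside, the standard protein in certain cells: Rpl22l1 is the paralog of Rpl22, a protein needed for lymphocyte development, Rpl3l and Rpl39l are known from muscle and testis, and Rps27l is known as a target gene of p53.

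The coding sequences of Rps27 and Rps27l are shown because Rps27l was the member with the smallest p-value in the comparison of WT and PELI2 knockout, with a log2 fold change of 0.32 where its partner Rps27 had 0.02. Rps27 lies on chromosome 3 (GRCm38, 90212522 to 90213651, minus strand, 4 exons) and Rps27l on chromosome 9 (66946086 to 66949516, plus strand, 4 exons). Both spliced coding sequences, from GENCODE M21 without the stop codon, have 252 bases. Capitals in Rps27l mark the 60 bases that differ from Rps27 at the same position, an identity of 76.2%.
Rps27: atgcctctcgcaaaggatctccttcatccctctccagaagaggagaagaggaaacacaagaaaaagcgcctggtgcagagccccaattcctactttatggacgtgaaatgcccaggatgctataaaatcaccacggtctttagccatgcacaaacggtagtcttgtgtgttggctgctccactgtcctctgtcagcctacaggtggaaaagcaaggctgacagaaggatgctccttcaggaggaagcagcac
Rps27l: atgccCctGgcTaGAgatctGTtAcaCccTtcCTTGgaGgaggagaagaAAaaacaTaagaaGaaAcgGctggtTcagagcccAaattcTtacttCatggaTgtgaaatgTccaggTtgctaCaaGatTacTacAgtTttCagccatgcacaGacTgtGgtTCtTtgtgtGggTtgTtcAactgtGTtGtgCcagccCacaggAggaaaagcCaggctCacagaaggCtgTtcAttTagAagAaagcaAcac
The longest stretch shared at the same positions was 11 bases, so that no stretch of 50 bases is the same in both genes at matching positions.

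Promoter windows of RefSeq (GRCm38.p6) were matched for 56 of the 76 structural members and 7 of the 11 paralogs. The windows of 50 bases before and 20 after the start are shown for Rps27 and Rps27l, and for Rps21, Rpl38, Rps28 and Rps12, the matched structural members in which PELI2 knockout replicate 3 exceeded replicate 2 most. Capitals mark the first 5 transcribed bases at the RefSeq start. For Rpl38 and Rps12 that start lies 56 and 66 bases from the start in GENCODE M21. For the other genes shown the distance is 0 to 3 bases. The windows are chr3:90213629-90213698 (- strand) for Rps27, chr9:66946036-66946105 (+ strand) for Rps27l, chr2:180257329-180257398 (+ strand) for Rps21, chr11:114668530-114668599 (+ strand) for Rpl38, chr17:33824543-33824612 (- strand) for Rps28 and chr10:23787190-23787259 (- strand) for Rps12.
Rps27: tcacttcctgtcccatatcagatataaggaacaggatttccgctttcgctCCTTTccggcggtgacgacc
Rps27l: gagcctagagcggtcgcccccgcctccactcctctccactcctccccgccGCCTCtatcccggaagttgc
Rps21: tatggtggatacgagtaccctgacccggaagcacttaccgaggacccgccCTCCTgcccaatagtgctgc
Rpl38: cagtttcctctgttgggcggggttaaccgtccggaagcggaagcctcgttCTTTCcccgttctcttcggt
Rps28: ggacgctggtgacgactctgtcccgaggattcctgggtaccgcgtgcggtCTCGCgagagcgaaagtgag
Rps12: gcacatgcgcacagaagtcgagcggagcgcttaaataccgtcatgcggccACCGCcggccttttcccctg
Rps27, Rps21 and Rpl38 begin with C and 4 more pyrimidines at the annotated start, while Rps28, Rps12 and Rps27l do not. That start was found in 12 of the 56 structural members (21.4%), in 1 of the 7 paralogs and in 2.49% of all 27025 promoters. A run of at least 6 pyrimidines across the start was held by 30.4% of the structural members and 7.11% of all promoters. Over 250 bases before and 50 after the start, on both strands, the letters CCGGAAG, a core recognised by ETS factors, stood in 39.3% of the structural members and 9.17% of all promoters. The letters AAGATGGC, a core recognised by YY1, stood in 7.14% and 2.87%, and TATAAA in 8.93% and 14.2%. These are matches of letters at annotated starts, which the libraries did not measure.

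Values are FPKM (fragments scaled by transcript length and by library size), a level per length. Steps between low values placed the depth at 16600000 to 18000000 reads, so that 1 FPKM on a transcript of 1 kb is 16.6 to 18 reads. Peli2, the labelled target, stood at 2.47 to 3.07 FPKM where the label is PELI2 knockout and at 1.99 to 2.54 in WT, so that it was no lower there (two-sided exact permutation p = 0.2 for n = 3 per group, where 0.1 is the smallest possible), although a value per gene cannot show the loss of single exons. All 12 B lineage markers were detected, with a summed level of 4230 to 5190 FPKM in WT and 3620 to 3680 FPKM in the PELI2 knockout libraries. Markers of other marrow cells moved with the groups: the 12 granulocyte markers summed to 7270 to 10100 FPKM in WT and 11600 to 13600 FPKM in PELI2 knockout, the 7 monocyte markers to 614 to 871 and 912 to 1130, and the 9 erythroid markers to 9130 to 13300 and 13900 to 17700. Groups were apart on the higher side for 9 of the granulocyte, 6 of the monocyte and only 3 of the erythroid markers, against 11.5% of all genes. On the lower side they were apart for 8 of the B lineage markers, against 14.3% of all genes. The 9 T and NK cell markers summed to 77.8 to 97.6 and 100 to 124. Of the 8 tested, only Nkg7 and Cd4 had groups apart, both on the higher side, against 11.5% of all genes. The median log2 fold change was 0.07. The 7 plasmacytoid dendritic cell markers summed to 958 to 1000 and 998 to 1150, which overlap. For 6 of them the mean was higher in PELI2 knockout. Groups were apart for 5, all on the higher side, against 11.5% of all genes. No marker in these lists was at 0 in all libraries. In such bulk samples, fewer cells of a type and less RNA per cell cannot be told apart. The part of these shifts in the values below was not tested.

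The structural members spanned from 2.73 to 1730 FPKM in their mean over the 6 libraries, with a median of 263 FPKM, and 68 of the 76 lay between 100 and 1000. The median was 348 FPKM for the small subunit and 233 FPKM for the large subunit. Highest was Rplp1, an acidic stalk protein, at 1540, 1645 and 1715 FPKM in WT and 1839, 1647 and 2017 in PELI2 knockout. Rps3a1 followed at 1228 FPKM, then Rplp0, the protein that anchors the stalk, at 935, Rps15 at 846 and Rpl4 at 748. Rplp2, which pairs with Rplp1 in the stalk, had a mean of 213 FPKM, and Rplp1 was 8.13 times higher. Lowest of the structural members were Rpl24, at 1.63 to 3.76 FPKM, Rpl13a, at 16.8 to 18.0, and Rpl21, at 23.1 to 45.1. In Rpl24, 69.4% of all windows of 50 bases in the principal transcript also occur in Gm28037, and in Rpl13a 57.4% occur in Gm45713, genes not analysed here. The levels of both are therefore uncertain.

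No member passed the test between WT and PELI2 knockout. Of the 87 members, 86 passed the filter of 1 FPKM in at least 3 libraries, all but Rpl39l, and 0 of them had an adjusted p under 0.05 by limma with Benjamini-Hochberg adjustment over all 12953 genes tested, of which 3 (0.0232%) did, all of them higher in PELI2 knockout. With an unadjusted p under 0.05 there was 1 member, Rps27l, on the higher side, or 1.16% of the members against 18.1% of all genes, and on the higher side alone 9.2% of all genes. On the lower side there were 0 members, against 8.88% of all genes. The groups did not overlap for 3 members (3.49%), Rpl7a, Rpl26 and Rps27l, all with PELI2 knockout above WT, against 25.8% of all genes and 11.5% in that direction.

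For the structural members the estimates were small and mostly on the higher side. The median log2 fold change (PELI2 knockout over WT, on log2(FPKM + 1)) was 0.08 for the 30 small subunit members and 0.10 for the 46 large subunit members, against -0.01 over all genes tested. The mean was higher in PELI2 knockout for 46.4% of all genes tested and for 72 of the 76 structural members. The split depended on the scaling. With median-of-ratios scaling it was 73 higher and 3 lower, with a median of 0.09. It did not hold after rescaling every library to a common FPKM total, with 42 higher, 34 lower and a median of 0.01. Nor did it hold after quantile normalization, which left 49 and 27. Rescaling to a common total also moved the median of all genes, to -0.08. Without PELI2 knockout replicate 3 the split was 44 and 32, and the medians were -0.01 for the small subunit and 0.02 for the large. The 95% interval of the log2 fold change lay within 0.5 of 0 for 68 of the 76 structural members and within 1 for 75, with Rps27a the exception. The half-width of the interval had a median of 0.21.

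**Figure D1:**
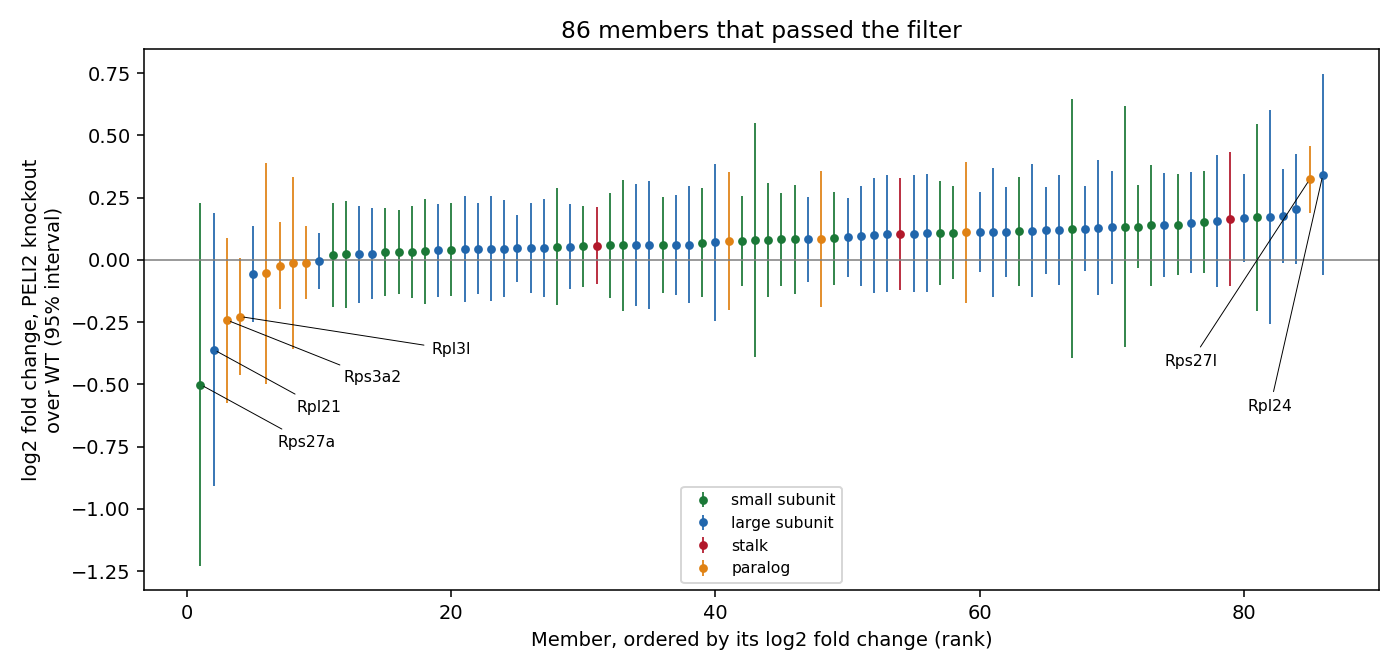
Log2 fold change of PELI2 knockout over WT for each of the 86 members that passed the filter, in rank order, with bars for the 95% interval from limma over 3 libraries per group; colours give the role of each member. Most points lie just above 0, the interval of Rps27l from 0.19 to 0.46 is the only one that leaves out 0, and Rps27a and Rpl21 have the lowest estimates with wide bars.

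The stalk proteins lay in this narrow band. Rplp0 stood at 848, 880 and 974 FPKM in WT and 939, 923 and 1045 in PELI2 knockout, a log2 fold change of 0.11 (95% interval -0.12 to 0.33). For Rplp1 the log2 fold change was 0.16 (-0.11 to 0.43) and for Rplp2 0.06 (-0.10 to 0.21). The groups overlapped for each of the 3.

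Among structural members, the smallest p-values on the higher side belonged to Rpl26, Rpl31, Rpl7a, Rpl24 and Rps25. Rpl26, a large subunit protein known to bind the p53 mRNA, stood at 255, 295 and 280 FPKM in WT and 305, 302 and 324 in PELI2 knockout. Every knockout library was above every WT library, with a log2 fold change of 0.17 (95% interval -0.01 to 0.35, adjusted p = 0.293 by limma). Rpl31, a protein near the exit of the nascent chain, stood at 278, 281 and 298 against 323, 296 and 351 FPKM, which overlapped by 1 library on each side. Its log2 fold change was 0.17 (limma adjusted p = 0.302). Rpl7a stood at 109, 101 and 111 FPKM in WT and 112, 140 and 120 in PELI2 knockout, which differed by 0.20 on the log2 scale (adjusted p = 0.302 by limma). The gap between its groups was small, and 81.2% of its windows of 50 bases occur in other genes. Its log2 fold change was 0.06 once 26 near-identical rows were added. Rpl24 had a log2 fold change of 0.34 (-0.06 to 0.75) at only 2.73 FPKM, and 0.01 with 3 near-identical rows added. Rps25 had 0.13 (-0.03 to 0.30).

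On the lower side, 4 structural members had a lower mean in PELI2 knockout: Rps27a, Rpl21, Rpl30 and Rpl13a. Rps27a encodes a fusion of ubiquitin with a small subunit protein and varied most within groups of all members. It stood at 158, 218 and 227 FPKM in WT and at 107, 228 and 112 in PELI2 knockout. The knockout libraries split, with replicates 1 and 3 below every WT library and replicate 2 just above every one, and the log2 fold change of -0.50 had an interval from -1.23 to 0.23. Without PELI2 knockout replicate 2 it was 1 of 7 members with an unadjusted p under 0.05. Rpl21 stood at 26.9, 45.1 and 43.7 FPKM in WT and 35.1, 23.1 and 30.2 in PELI2 knockout, with a log2 fold change of -0.36 (-0.91 to 0.19). WT replicate 1 lay among the knockout values, and without it the unadjusted p fell under 0.05. Rpl30 differed by -0.06 and Rpl13a, the member with the smallest spread within groups, by -0.01.

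The larger pattern in the structural members was between libraries and not between groups. PELI2 knockout replicate 3 had the highest value for 69 of the 76 (90.8%), while it was the highest library for 17.2% of all genes tested. WT replicate 1 was lowest for 40 (52.6%), against 25.9% of all genes tested. PELI2 knockout replicate 2 was lowest for 21 (27.6%), against 14.9% of all genes tested. After rescaling to a common FPKM total, replicate 3 of PELI2 knockout was still the highest library for 60 members, and replicate 2 of the same group was then the lowest for 49. The median deviation from the gene's mean was 0.16 (log2) in PELI2 knockout replicate 3, -0.08 in replicate 2 and 0.03 in replicate 1, against -0.11, -0.05 and 0.03 in WT replicates 1 to 3. PELI2 knockout replicate 2 thus lay within the WT range and replicate 3 above it. Replicate 1 lay just above it, at 0.033 against 0.0264 in WT replicate 3.

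**Figure D2:**
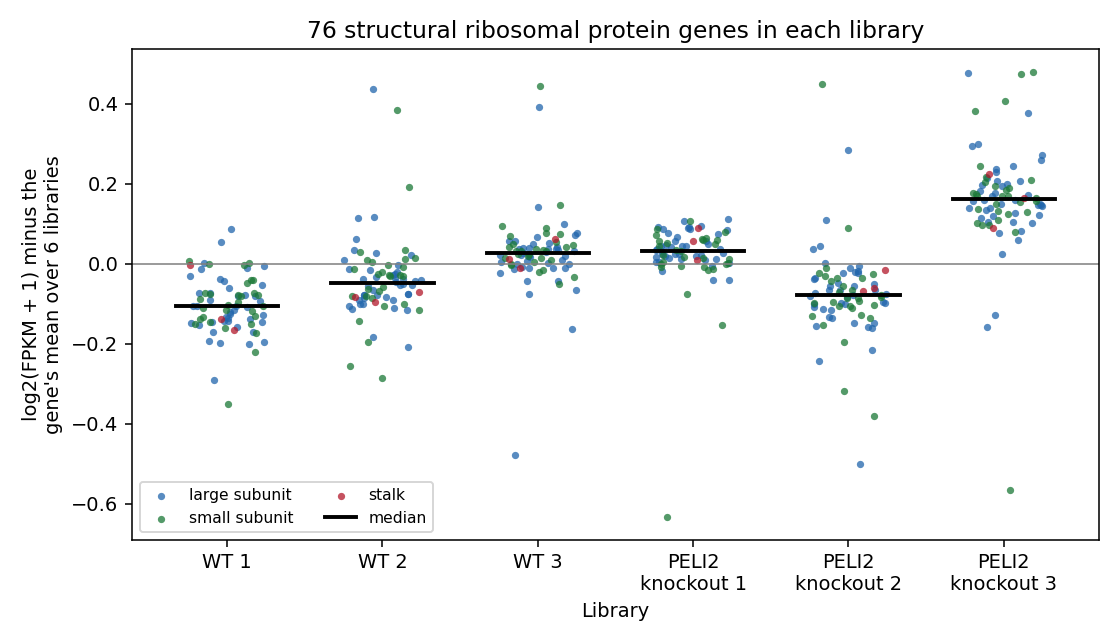
Each point is 1 of 76 structural ribosomal protein genes in 1 library, as log2(FPKM + 1) minus that gene's mean over the 6 libraries; black bars are medians and colours the subunit. The points of PELI2 knockout replicate 3 lie mostly above 0 with a median of 0.16, and those of PELI2 knockout replicate 2 mostly below, with a median of -0.08.

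PELI2 knockout replicate 3 exceeded replicate 2 most in several members with short coding sequences. Rps21 stood at 189 FPKM in PELI2 knockout replicate 2 and 343 in replicate 3, with 211, 227 and 272 in WT. Rps29, a zinc-binding small subunit protein, stood at 309 and 535, with 374, 322 and 412 in WT. For Rpl38 the values were 238 and 392, with 245, 262 and 289 in WT. In all 3, replicate 3 of PELI2 knockout was the highest library and replicate 2 of PELI2 knockout the lowest. On the log2 scale the gap, replicate 3 minus replicate 2, was 0.86 for Rps21, 0.79 for Rps29, 0.72 for Rpl38, 0.58 for Rps28, 0.54 for Rps12 and 0.51 for Rpl39. Rpl41, the shortest, had 0.38, and the widest gap was in the other direction, at -1.02 for Rps27a. Over the 9 structural members with a coding length under 300 bases its median was 0.51, against 0.22 over the other 67. Across the 76 members, which share the same 2 libraries, Spearman's rho between coding length and this gap was -0.64, as a description. Tested genes outside the members were split by transcript length instead, and near-identical copies of members and noncoding rows were not taken out. Their median gap was -0.01 for the 1377 with a principal transcript under 600 bases and -0.01 for the 11469 longer ones. Mitochondrial ribosomal proteins had a median gap of 0.05, and the 4 ribosomal proteins outside the symbol rule 0.16, with PELI2 knockout replicate 3 the highest library for 3 of them. Among the marker lists the 8 tested T and NK cell markers had the highest median gap, at 0.19. It was 0.12 for monocyte, 0.05 for granulocyte, 0.03 for B lineage and 0.03 for plasmacytoid dendritic cell markers. Erythroid markers had -0.16 and plasma cell markers -0.20. The within-group SD on the log2 scale had a median of 0.19 for the short members, 0.11 for the longer ones and 0.10 for all genes tested. What sets these libraries apart was not tested.

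**Figure D3:**
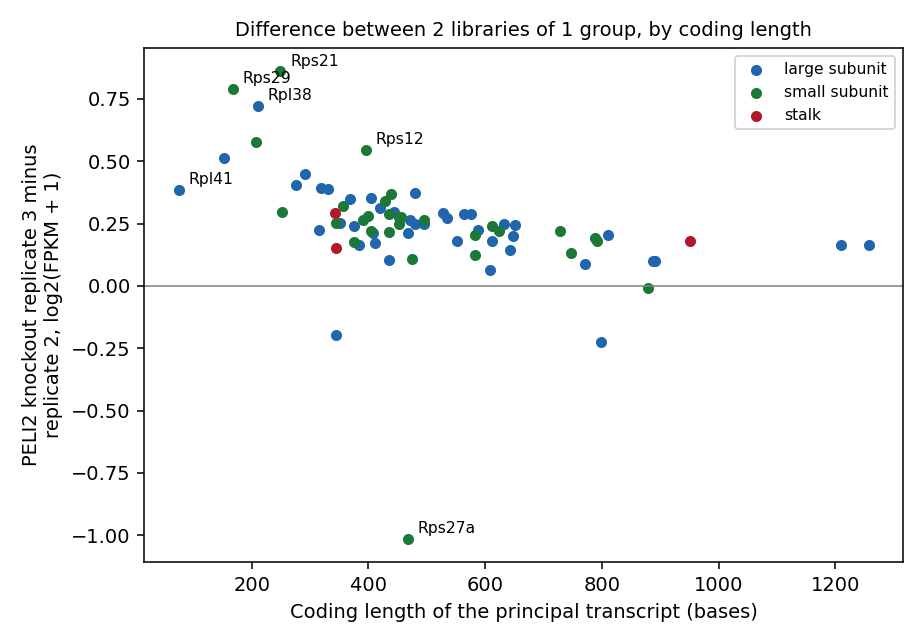
Difference between PELI2 knockout replicate 3 and replicate 2 in log2(FPKM + 1) against the coding length of the principal transcript in bases, for the 76 structural members. Short genes such as Rps21, Rps29 and Rpl38 lie above 0.7, most longer genes lie near 0.2, and Rps27a lies at -1.02.

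Among the paralogs, Rps27l differed most clearly between the groups. It stood at 43.6, 41.7 and 45.6 FPKM in WT and at 53.8, 53.0 and 57.7 in PELI2 knockout. All knockout libraries were above all WT libraries, 43.6 ± 1.95 against 54.9 ± 2.54 FPKM (SD, n = 3), a ratio of 1.26. The log2 fold change was 0.32 (95% interval 0.19 to 0.46), with an unadjusted p of 0.000859 and an adjusted p of 0.137 by limma, so it did not pass. The adjusted p stayed between 0.104 and 0.366 and the log2 fold change between 0.25 and 0.36 in 17 other ways of processing, including each library left out. Its partner Rps27 stood at 385, 387 and 370 FPKM in WT and 379, 351 and 431 in PELI2 knockout, with overlapping groups and a log2 fold change of 0.02 (-0.19 to 0.23). The log2 ratio of Rps27l to Rps27 was -3.10 ± 0.10 in WT and -2.79 ± 0.09 in PELI2 knockout (SD, n = 3). Its difference of 0.30 had an exact two-sided permutation p of 0.1, the smallest that 3 against 3 libraries can give, and 0.5 after adjustment over 10 pairs. The ratio rests on an uncertain partner, since 98.6% of the windows of Rps27 occur in Rps27rt, a gene of identical coding sequence at 130 to 258 FPKM. For Rps27l, 22.4% of the windows occur in other genes. As read from the coding sequences above, Rps27 and Rps27l themselves can be told apart.

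Rpl3l was the paralog with the next smallest p. It stood at 4.26, 3.81 and 4.90 FPKM in WT and 3.56, 3.85 and 3.20 in PELI2 knockout, so that 1 knockout library lay within the WT range. The log2 fold change was -0.23 (95% interval -0.46 to 0.01, limma adjusted p = 0.284), and it shares none of its windows with another gene. Rpl3, its partner, had 304 FPKM on average, 77.4 times more. The log2 ratio of Rpl3l to Rpl3 was -5.79 ± 0.12 in WT and -6.13 ± 0.19 in PELI2 knockout (SD, n = 3). The ratios of the groups did not overlap, with an exact permutation p of 0.1 and 0.5 after adjustment over the 10 pairs.

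For the other paralogs the groups overlapped. Rpl22l1 stood at 23.9, 26.3 and 30.8 FPKM in WT and 29.9, 25.3 and 32.4 in PELI2 knockout, and Rpl22 at 77.3, 81.8 and 86.8 against 87.8, 83.9 and 94.2. Their log2 ratio was -1.57 in both groups, with SDs of 0.10 and 0.10. Rpl22l1 was the paralog nearest in level to its partner, which stood 3.04 times higher. Rpl7l1, a nucleolar relative of Rpl7 with a coding identity of 54.0%, stood at 24.3 to 27.1 FPKM in all 6 libraries, with a log2 fold change of -0.01 (-0.16 to 0.14). Rps4l stood at 9.25 to 11.3 FPKM and Rpl36al at 2.06 to 3.11. Rpl39l was near the limit of detection, at 0 to 0.20 FPKM, where Rpl39 had 196 to 280.

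In GENCODE M21, 5 of the 11 paralog rows are annotated as processed pseudogenes: Rpl6l, Rpl32l, Rps3a2, Rps3a3 and Rps4l. Rpl6l had the highest level, 45.2 to 60.4 FPKM, and shares 76.4% of its windows with other genes, Rpl6 first among them. Rps3a2, with 90.2% shared, stood at 6.84, 8.05 and 9.88 FPKM in WT and 6.27, 6.22 and 7.90 in PELI2 knockout, with a log2 fold change of -0.24 (-0.57 to 0.09). Its groups overlapped, and the log2 ratio to Rps3a1 differed by -0.26 (exact permutation p = 0.2). Rps3a3 had a log2 fold change of -0.05 and Rpl32l -0.01.

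**Figure D4:**
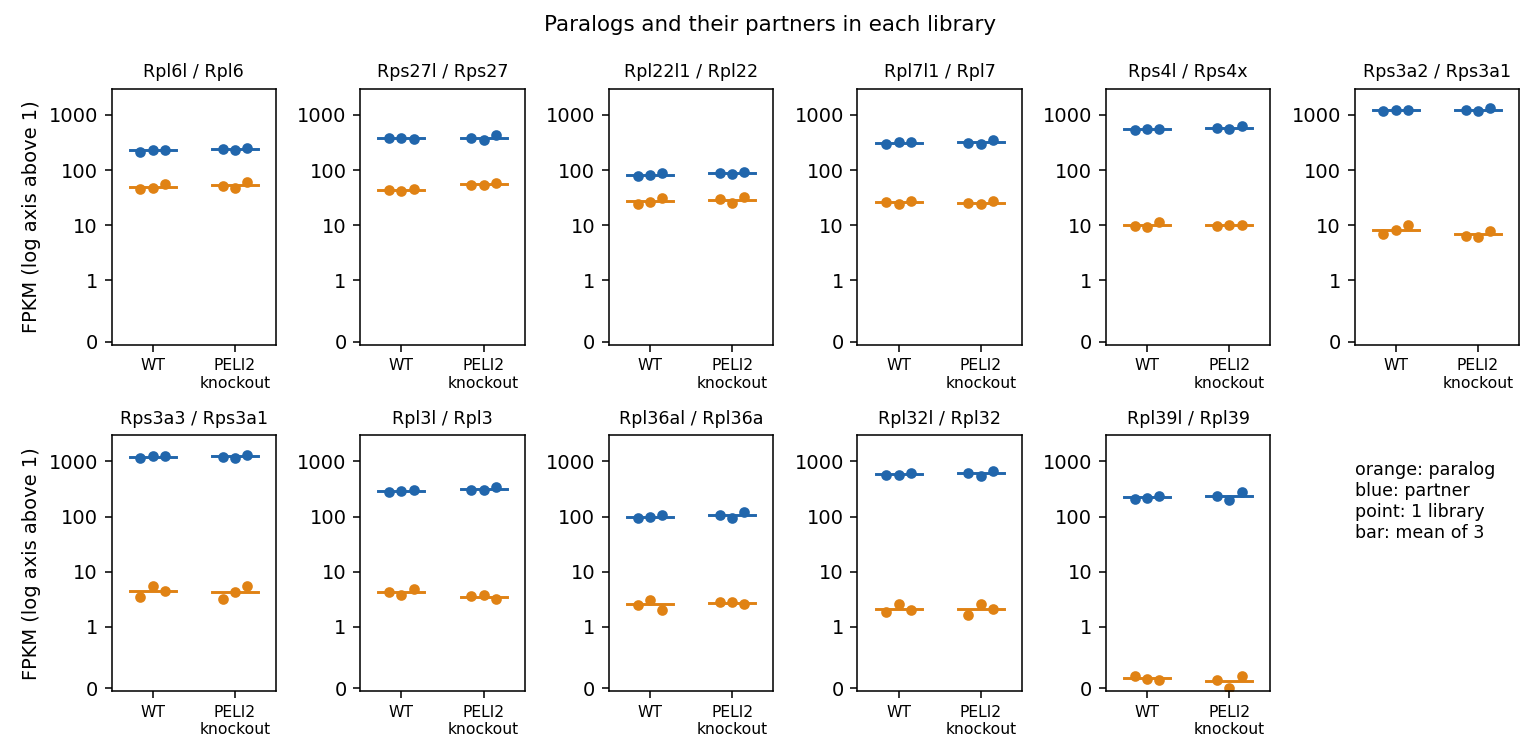
FPKM of each paralog (orange) and its partner (blue) in every library, on an axis that is logarithmic above 1, with bars for the group means of 3 libraries. Every paralog lies below its partner, from 3.04 times for Rpl22l1 up, and the orange points of Rps27l are the only ones that do not overlap between WT and PELI2 knockout.

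Reads of 50 bases often fit more than 1 ribosomal protein row. Near-identical rows, with at least 95% identity over at least 80% of the coding sequence, were found for 77 of the 87 members, 426 rows in all, of which 412 are annotated as processed pseudogenes. For 9 members the member's own row held under 50% of the summed FPKM. Rps10 had 206 FPKM where Rps10-ps2 had 344, Rpl23 had 213 where Gm9794 had 343, Rps12 had 186 where Rps12-ps3 had 303, and Rpl17 had 400 where Rpl17-ps3 had 281 and Rpl17-ps10 had 220. How the deposited table divided such reads is not given in the sources used here, so levels of single members with copies are uncertain. With copies added to their member, which was chosen after seeing the data, no member passed the test either, and the median log2 fold change was 0.08 for the small and 0.08 for the large subunit. Rpl21 moved most, from -0.36 to 0.19, and its own row holds 20.4% of the level summed over 37 copies, while Rpl30 moved from -0.06 to 0.31 with an interval of -0.47 to 1.09. Rps27a moved from -0.50 to -0.28 (-0.79 to 0.24).

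**Figure D5:**
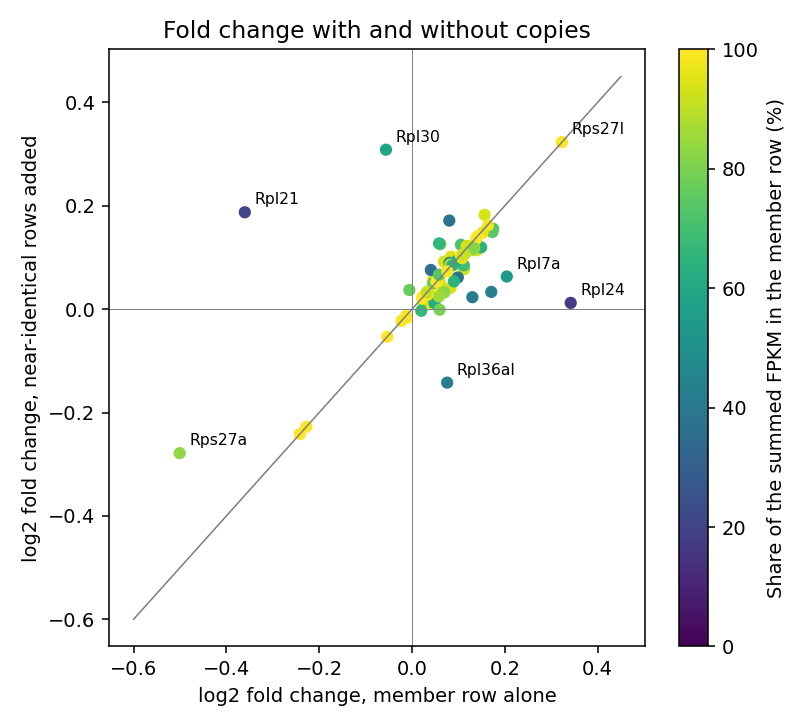
Log2 fold change of PELI2 knockout over WT for 86 members from the member row alone (horizontal) and with near-identical rows added (vertical), coloured by the share of the summed FPKM in the member row. Most points lie on the line of equality, while Rpl21, Rpl30, Rpl24 and Rps27a lie away from it.

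Summed over all 87 members, ribosomal protein rows made up 7.80%, 7.86% and 8.18% of the FPKM total in WT and 7.97%, 7.47% and 8.66% in PELI2 knockout. The knockout libraries lay below, within and above the WT range. The means were 7.95% ± 0.20 and 8.03% ± 0.60 (SD, n = 3), with an exact permutation p of 0.8. The sum of small subunit rows over that of large subunit rows was 0.744 ± 0.004 in WT and 0.728 ± 0.010 in PELI2 knockout (SD, n = 3), with 0.739 to 0.747 against 0.717 to 0.734. These ranges did not overlap, and the exact permutation p of 0.1 is the smallest possible. The separation rests on Rps27a, at 158, 218 and 227 FPKM in WT and 107, 228 and 112 in PELI2 knockout. With that row left out of the small subunit sum, the ranges overlap.

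Genes that build or use the ribosome were listed beside the members, and none passed the test in either direction by limma. Of the ribosomal proteins whose symbols fall outside the rule, Rpsa, Fau and Rack1 had log2 fold changes of 0.14, 0.08 and 0.06. The 43 ribosome assembly factors had a median of 0.00, with 23 higher and 20 lower in mean, and Brix1 the smallest p (log2 fold change -0.17, limma adjusted p = 0.217). For the 19 RNA polymerase I genes, which make ribosomal RNA, the median was -0.03, and for the 77 mitochondrial ribosomal proteins 0.02. The 7 translation elongation factors had a median of 0.04 and the 28 initiation factors 0.02. The groups did not overlap on the higher side for 4 of the 28 initiation factors, Eif2s2, Eif4a1, Eif5b and Eif4g1, where 11.5% of all genes did not. Eif2s2 and Eif4a1 had the smallest p, with log2 fold changes of 0.20 and 0.18 (limma adjusted p = 0.218 and 0.228).

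The list closest to the terminal oligopyrimidine tract holds 14 genes of the mTOR pathway, the La-related proteins Larp1 and Larp4, and the transcription factors Myc and Mxd4, with a median of -0.07. Its groups did not overlap on the lower side for 7 of them, where 14.3% of all genes did not. On the higher side they did not overlap for 1, Larp1, where 11.5% of all genes did not. Tsc1 stood at 7.64, 7.22 and 6.99 FPKM in WT and 6.62, 6.63 and 5.98 in PELI2 knockout, a log2 fold change of -0.16. Rps6kb2, a kinase of ribosomal protein S6, had -0.18, Rptor, the mTORC1 scaffold, -0.11, and Eif4ebp1, a repressor of cap-dependent initiation, 0.19. The limma adjusted p of these was 0.249 or more. The 10 tested hosts of small nucleolar RNAs had a median of 0.01, with 5 higher and 5 lower in mean. Groups did not overlap for 2 of them, Gas5 and Snhg1, both on the higher side, where 11.5% of all genes did not. Gas5 stood at 30.9, 30.6 and 32.5 FPKM in WT and 34.4, 34.0 and 36.1 in PELI2 knockout. Its log2 fold change was 0.15 (limma adjusted p = 0.214). The marker sums given above moved with the same groups, and their part in these values was not tested.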

How the data were processed

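Messenger RNA of 3 WT and 3 PELI2 knockout samples was sequenced, per the labels' protocols after TRIzol extraction, oligo(dT) purification and random hexamer priming, with single-end reads of 50 bases on a DNBSEQ instrument. Software listed in the submitters' processing notes, without roles, is RSEM 1.2.12, Bowtie2 2.2.5, HISAT2 2.0.4 and DESeq2 1.4.5, and the build listed there is GRCm38.p6. The authors deposited FPKM per gene and library in 1 table, with no scaling across libraries stated, and strand use is not given, so antisense overlaps are unresolved. Of 27761 rows, 27696 have an ID in GENCODE M21, and 95.6% of those have identical positions.

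The test used log2(FPKM + 1) of the genes that reached 1 FPKM in 3 or more libraries, which understates changes of low genes, and limma 3.58.1 in R 4.3.3 (lmFit, eBayes with a trend, two-sided, no replicate block). Benjamini-Hochberg adjustment ran over 12953 genes, and an adjusted p under 0.05 counted as a difference. The script was tested on simulated data. Ratios and shares were compared by exact permutation over libraries. Depth was the total that made values under 6 reads whole within 0.03 reads. It gave 99.3% to 99.5% whole values. Near-identical rows and windows of 50 bases came from GENCODE M21 transcripts.

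The members and lists were chosen with earlier results of these data known. Named members are the paralogs and partners, the stalk, the 5 highest and 5 lowest levels, the 6 smallest p on each side, the extremes of within-group SD, members with a -ps row of the same name, and up to 4 genes per list by smallest p. Rps21, Rps28, Rps29, Rpl38, Rpl41, Larp1, Eif4g1 and the copies were named after their values were seen. Some genes are not reported here. Alternatives were pseudocounts, filters, scalings, eBayes without a trend, library weights, the replicate block and each library left out. Figures were drawn with matplotlib.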

Additional observations from a re-analysis of the deposited data

How the results depend on the processing

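No member was called in any of the 17 alternatives. The count with an unadjusted p under 0.05, 1 as reported, was 2 with median-of-ratios scaling, quantile normalization or library weights, 3 with a common FPKM total or with the replicate block, and 1 to 7 with 1 library left out. Rps27l was among them each time. The count over all genes, 3 as reported, was 1 with a filter of 5 FPKM, 6 without a trend, and 2 to 16 with 1 library left out, 16 without PELI2 knockout replicate 3. Same-numbered samples correlated at 0.10, 0.04 and 0.09 in their deviations, and differently numbered ones at -0.107 to 0. Each thus correlated best with its own number. Whether they share more than a number is not given in the labels and was not tested. With the replicate block, 0 members were called. With 3 libraries per group and 1 of them apart, small differences changed sign, and the cause was not tested. With a common FPKM total the log2 fold changes became -0.015 for Rpl32, -0.0036 for Rpl39, -0.029 for Rpl4, -0.052 for Rpl7, -0.017 for Rplp2, -0.021 for Rps15, -0.054 for Rps27 and -0.052 for Rps3a1. With quantile normalization they became -0.009 for Rpl32, -0.062 for Rpl4, -0.071 for Rpl7, -0.063 for Rps15, -0.071 for Rps27 and -0.10 for Rps3a1. Rpl13a became 0.0021 with library weights, 0.0008 with median-of-ratios scaling and 0.037 with copies added, and Rpl7 became -0.011 with library weights. With copies added the values became 0.19 for Rpl21, 0.31 for Rpl30, -0.14 for Rpl36al and -0.0031 for Rps27. With 1 library left out the ranges were -0.025 to 0.021 for Rpl13a, -0.097 to 0.0091 for Rpl30, -0.025 to 0.15 for Rpl32, -0.13 to 0.098 for Rpl32l, -0.028 to 0.19 for Rpl36al, -0.0599 to 0.20 for Rpl39, -0.0005 to 0.082 for Rpl4, -0.015 to 0.17 for Rpl6l, -0.042 to 0.061 for Rpl7, -0.056 to 0.025 for Rpl7l1, -0.026 to 0.12 for Rps15, -0.0603 to 0.088 for Rps27, -0.027 to 0.062 for Rps3a1, -0.20 to 0.094 for Rps3a3 and -0.079 to 0.0501 for Rps4l. The median over all structural members, 0.083 as reported, was 0.0087 with a common FPKM total and 0.015 without PELI2 knockout replicate 3. The subunit and paralog medians ran over -0.0092 to 0.13 for the small subunit, 0.024 to 0.15 for the large subunit and -0.025 to 0.077 for the paralogs when 1 library was left out. The share of FPKM from members then differed by -0.23 to 0.37 percentage points between groups. The Rpl39l to Rpl39 log2 ratio differed by -0.52 at a pseudocount of 0.1. List medians with a common FPKM total were -0.098 for RNA polymerase I, -0.049 for mitochondrial ribosomal proteins, -0.069 for assembly factors, -0.032 for elongation factors and -0.048 for initiation factors. The median of the ribosomal proteins outside the symbol rule was -0.019 with quantile normalization, and that of RNA polymerase I ran over -0.07 to -0.014 with 1 library left out. Depth limits Rpl39l and Rpl24.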

Other observations

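The copies of Rpl30 varied more between libraries than Rpl30 itself. Rpl30 stood at 107, 103 and 119 FPKM in WT and 110, 110 and 96.1 in PELI2 knockout. The processed pseudogene Gm12191, with a coding identity of 99.7% to Rpl30, stood at 16.4, 56.9 and 16.3 FPKM in WT and 35.1, 14.8 and 119 in PELI2 knockout. Rpl30-ps10, with 99.1%, stood at 5.53, 28.3 and 6.02 in WT and 15.7, 3.38 and 102 in PELI2 knockout. Both were highest in PELI2 knockout replicate 3, followed by WT replicate 2, and both were lowest in PELI2 knockout replicate 2. In Rpl21, the copy Gm12411 stood at 25.7, 6.10 and 13.4 FPKM in WT and 20.6, 30.7 and 48.8 in PELI2 knockout, while Rpl21-ps15 stood between 47.3 and 69.1 in all libraries. These rows were chosen after their values were seen, and no test was made on them.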
